A study of Mus musculus with 12 samples.

Results

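The genes described here encode kainate and metabotropic glutamate receptors. They were listed by symbol and comprise 4 kainate subunit genes (Grik1, Grik2, Grik3 and Grik5) and 5 metabotropic receptor genes (Grm2, Grm3, Grm5, Grm7 and Grm8). All 9 were found by Ensembl identifier among the 46603 counted genes, and all 9 passed the filter on low counts in every comparison. The list was made with earlier results of these data known, and does not hold every gene of both families, leaving out for instance Grik4, Grm4 and Grm6. RNA was sequenced from microdissected neocortex of mice on a C57Bl/6J background, taken at embryonic day 12.5 (E12.5, both hemispheres) or postnatal day 5 (P5, a single hemisphere). At each stage 3 Chd8+/+ libraries were compared with 3 Chd8+/- libraries, 12 libraries in all, to ask how loss of 1 copy of Chd8, which encodes a chromatin remodeling factor, changes expression. The Chd8+/- mice carry a null allele without exon 3, made in the germline with β-actinCre and bred on without the Cre transgene, so every cell type has the allele. The labels give neither sex nor litter, nor do they say that each library is a separate animal, and p-values therefore measure the spread between these libraries.

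Glutamate acts on receptors of several classes. Kainate receptors are ligand-gated cation channels of 4 subunits. GluK1, GluK2 and GluK3, encoded by Grik1, Grik2 and Grik3, can form channels on their own, whereas GluK5, encoded by Grik5, needs one of them as a partner. Metabotropic receptors are G protein-coupled. Group I, which includes Grm5, acts through Gq and phospholipase C. Group II (Grm2 and Grm3) and group III (Grm4, Grm6, Grm7 and Grm8) act through Gi and Go and lower cyclic AMP. In cortex these receptors are known for tuning transmitter release, neuronal excitability and the maturation of circuits.

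RefSeq (GRCm38.p6) gave start sites for 7 of the 9 genes, 10 entries in all, of which 2 belong to Grm7 and 3 to Grm8. The 250 bases upstream of a start are shown for Grik5, the gene with the highest level per length, for Grm3, which had a large difference between the stages, and for Grik3 and Grm2, whose levels at P5 lay on opposite sides between the genotypes. Sequences run 5′ to 3′ on the gene's own strand, and capitals mark GGGCGG or its reverse complement CCGCCC, the GC box letters.
Grik3, chr4:125490446-125490695 (+): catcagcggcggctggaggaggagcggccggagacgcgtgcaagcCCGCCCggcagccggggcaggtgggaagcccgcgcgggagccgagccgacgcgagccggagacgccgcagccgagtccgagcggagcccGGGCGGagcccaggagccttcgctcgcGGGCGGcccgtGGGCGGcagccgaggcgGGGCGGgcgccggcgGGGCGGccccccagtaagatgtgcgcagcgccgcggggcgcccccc
Grik5, chr7:25072370-25072619 (-): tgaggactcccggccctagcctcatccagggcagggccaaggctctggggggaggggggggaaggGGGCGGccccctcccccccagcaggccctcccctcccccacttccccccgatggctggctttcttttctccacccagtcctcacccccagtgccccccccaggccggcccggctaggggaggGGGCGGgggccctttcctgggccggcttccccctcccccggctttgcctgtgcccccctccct
Grm2, chr9:106656110-106656359 (-): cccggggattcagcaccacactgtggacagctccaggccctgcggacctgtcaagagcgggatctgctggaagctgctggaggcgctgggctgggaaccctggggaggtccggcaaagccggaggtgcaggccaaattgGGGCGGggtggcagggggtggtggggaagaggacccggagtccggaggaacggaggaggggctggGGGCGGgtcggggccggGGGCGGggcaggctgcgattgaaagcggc
Grm3, chr5:9725353-9725602 (-): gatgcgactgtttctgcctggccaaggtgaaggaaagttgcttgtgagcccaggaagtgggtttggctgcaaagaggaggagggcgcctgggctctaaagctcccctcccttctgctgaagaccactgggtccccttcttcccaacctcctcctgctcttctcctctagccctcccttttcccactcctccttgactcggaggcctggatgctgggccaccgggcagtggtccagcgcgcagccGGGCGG
The window of Grik3 held 6 GC boxes and 42 CpG dinucleotides at 82% G and C. That of Grm2 held 3 boxes, that of Grik5 2 and that of Grm3 1. At Grm3 the RefSeq start lies 182 bases upstream of the gene's start in the counting annotation, at the other 3 genes 27 bases or less away. Of the 10 entries, 7 held a GC box on either strand, against 32.7% of all 32851 entries of the same length. The windows of both Grm7 entries overlap and hold the same box, so that these matches are not separate. None of the 10 held TATAAA (12.4% of all entries) or CAGCTG (13% of all entries) on either strand. The members had 2 to 42 CpG dinucleotides per window, with a median of 6 over all entries. These are matches of letters and not binding sites.

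Between 38774591 and 54695236 fragments were counted on genes per library. Chd8 itself was lower in Chd8+/- at both stages, by 0.51 on the log2 scale at E12.5 (adjusted p = 0.00562, edgeR's quasi-likelihood test) and by 0.61 at P5 (adjusted p = 7.21e-05). P5 Chd8+/- replicate 3 stood apart from its group, with a lowest chi-squared per degree of freedom to another library of its group of 43.71, against 7.09 to 15.42 for the other 11 libraries. Xist, transcribed from the inactive X chromosome, was at 835 CPM (counts scaled to library size) or more in 1 library of each group and at 2.2 CPM or less in the other two. Markers of excitatory neurons, such as Slc17a7 and Neurod6, were detected in every library, and progenitor markers were highest at E12.5.

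The question of the stage comparison is how the receptors change between a neocortex made mostly of progenitors and one that is forming synapses. All 9 genes were higher at P5 than at E12.5 in both genotypes. Expression of Grm5 differed most, from about 2 CPM to over 200 CPM, and that of Grik2 and Grik3 least. Each of the 9 passed the test in Chd8+/+ (background 84% of 19039 genes, 41.7% higher) and in Chd8+/- (background 83.2% of 18894 genes, 41.7% higher). With a log2 fold change of at least 1 also required, 7 of 9 were called higher in each genotype, against 26.1% of genes in each. The seventh gene in Chd8+/+, Grik5, lay at the limit. The median log2 fold change of the 9 genes was 2.94 in Chd8+/+ and 2.88 in Chd8+/-, where the median over all genes tested was -0.023 and 0.0010. Stage cannot be told apart from dissection, litter or sequencing set in this design.

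Grm5 (ENSMUSG00000049583, chr7:87602544-88134907 of GRCm38, + strand) encodes mGlu5, the main Gq-coupled glutamate receptor of the forebrain. In Chd8+/+ its CPM was 1.6, 2.3 and 1.57 at E12.5 and 270.6, 283.4 and 256.2 at P5. In Chd8+/- it was 2.76, 1.61 and 2.32 at E12.5 and 217.5, 242.9 and 241.8 at P5. All P5 libraries were far above all E12.5 libraries. The difference was 149.5-fold in Chd8+/+ (95% confidence interval 129.2 to 172.9, adjusted p = 3.34e-14 from edgeR) and 106.5-fold in Chd8+/- (86.3 to 131.3, adjusted p = 2.76e-10). In Chd8+/+ the E12.5 values rest on 75 to 100 counts per library.

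Grm3 and Grm2 encode the group II receptors, which lie at presynaptic terminals and, for mGlu3, also on astrocytes. Grm3 (ENSMUSG00000003974, chr5:9485541-9725170, - strand) was at 1.89, 1.56 and 1.55 CPM in E12.5 Chd8+/+ and at 55.7, 57.7 and 46 CPM in P5 Chd8+/+. In Chd8+/- it was at 1.79, 3.08 and 1.8 CPM at E12.5 and at 42.5, 43.7 and 49.1 CPM at P5. The embryonic value of 3.08 CPM stood apart from the other 5 at that stage. The log2 difference between the stages was 4.99 (standard error, SE, 0.115, adjusted p = 1.42e-12 from edgeR) in Chd8+/+ and 4.35 (0.167, adjusted p = 1.21e-08) in Chd8+/-.
Grm2 (ENSMUSG00000023192, chr9:106643095-106656082, - strand) was the highest metabotropic member per length at E12.5, with 5.84, 8.04 and 6.48 CPM in Chd8+/+, and reached 50.2, 51.3 and 54.1 CPM at P5. Its log2 difference was 2.94 in each genotype (SE 0.0983 and 0.0772, adjusted p = 3.54e-11 and 1.18e-09 from edgeR). Grm2 shares 470 exon bases with Gm28111 on the opposite strand. The recorded P5 counting command used no strand, so reads in that stretch could not be assigned between both genes.

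Of the group III receptors, which act at presynaptic active zones, Grm7 had a larger difference than Grm8. Grm7 (ENSMUSG00000056755, chr6:110645581-111567230, + strand) spans 921.6 kb, the longest of the 9, and shares 130 exon bases with Gm20387 on the opposite strand. It was at 2.6, 3.22 and 2.19 CPM in E12.5 Chd8+/+ and at 69.2, 70.4 and 69.2 CPM in P5 Chd8+/+. The log2 difference was 4.71 (SE 0.102, adjusted p = 8.83e-13 from edgeR) in Chd8+/+ and 4.89 (0.0994, adjusted p = 3.17e-10) in Chd8+/-. Grm8 (ENSMUSG00000024211, chr6:27275119-28135178, - strand) shares 96 exon bases with the microRNA gene Mir592 on its own strand. It had the lowest level per length at both stages, from 1.27 to 1.81 CPM in E12.5 Chd8+/+ and from 13 to 15.1 CPM in P5 Chd8+/+. Its log2 difference was 3.10 in Chd8+/+ and 2.75 in Chd8+/-.

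Of the 4 kainate members, Grik1 had the largest difference. Grik1 (ENSMUSG00000022935, chr16:87896196-88056176, - strand) was at 3.95, 4.87 and 3.95 CPM in E12.5 Chd8+/+ and at 29.9, 28.1 and 30.1 CPM in P5 Chd8+/+, a log2 difference of 2.79 (SE 0.0863, adjusted p = 1.75e-11 from edgeR). In Chd8+/- the difference was 2.88. Both stages were clearly separated, as for every member.
Grik5 (ENSMUSG00000003378, chr7:25009853-25072369, - strand) went from 136.7, 123.7 and 132.3 CPM to 254.3, 258.2 and 274.8 CPM in Chd8+/+. Its log2 difference was 1.00 (SE 0.0530, range 0.951 to 1.04 over the alternatives) in Chd8+/+ and 1.17 in Chd8+/-. In Chd8+/+ it therefore lay on either side of the 2-fold limit, depending on the processing.
Grik3 (ENSMUSG00000001985, chr4:125490700-125714173, + strand) and Grik2 (ENSMUSG00000056073, chr10:49099460-49788766, - strand) were already abundant in the embryo. Grik3 was between 97.2 and 106.5 CPM in E12.5 Chd8+/+ and between 178.4 and 185.4 CPM in P5 Chd8+/+, a log2 difference of 0.84 in Chd8+/+ and 0.71 in Chd8+/-. Grik2 was between 60.5 and 68.8 CPM and between 90.5 and 92.7 CPM, a log2 difference of 0.53 and 0.47. Both genes passed the test in both genotypes but were less than 2-fold higher at P5.

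**Figure D1:**
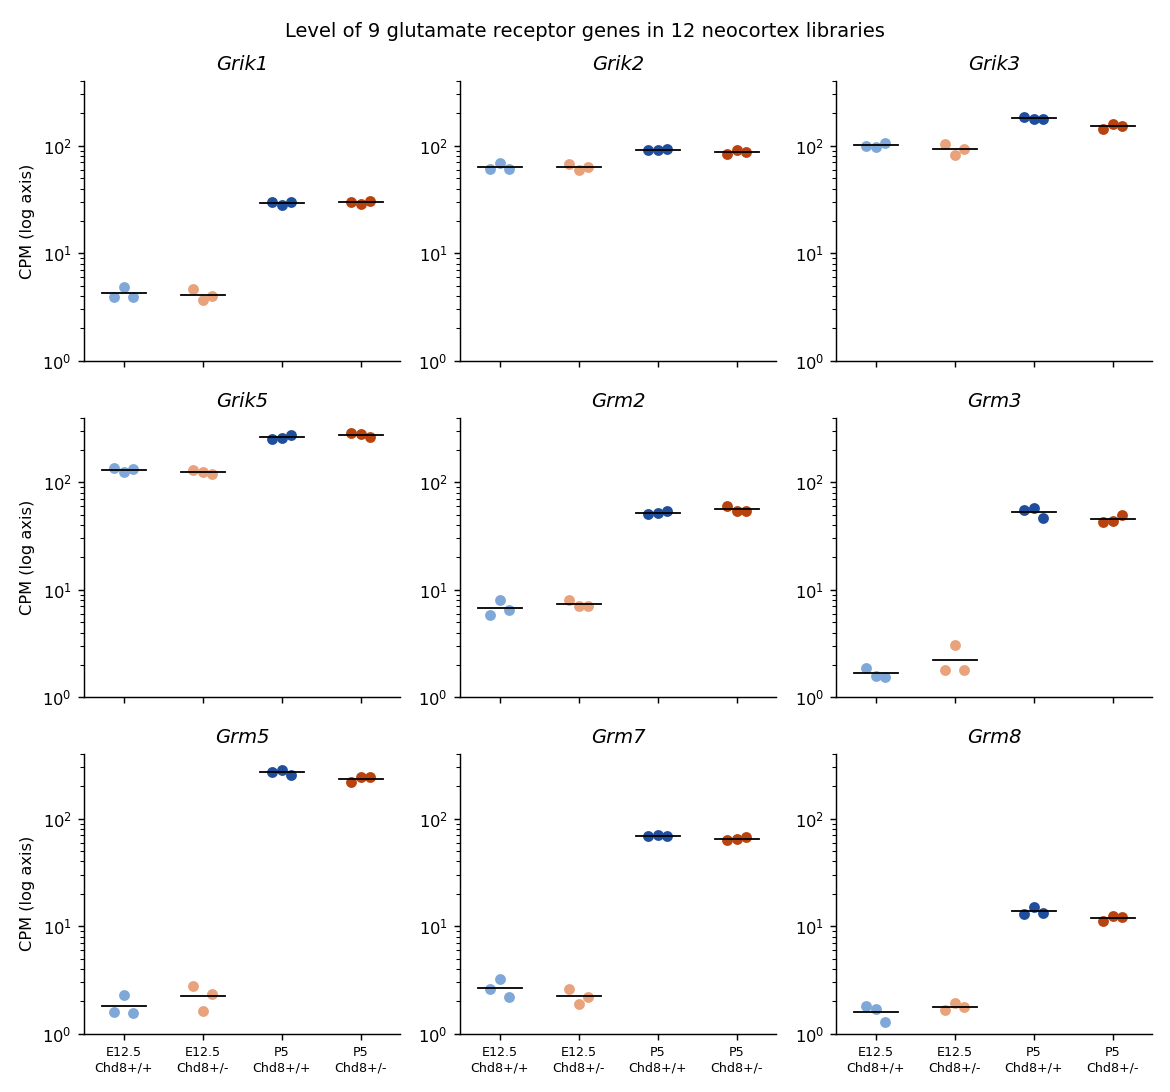
Level of each of the 9 receptor genes in the 12 libraries, in CPM with TMM factors on a log axis, by stage and genotype. Points are single libraries and lines are means of 3, and in every panel all P5 libraries lie above all E12.5 libraries, from a 1.44-fold (Grik2) to a 149.5-fold (Grm5) difference in Chd8+/+.

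**Figure D2:**
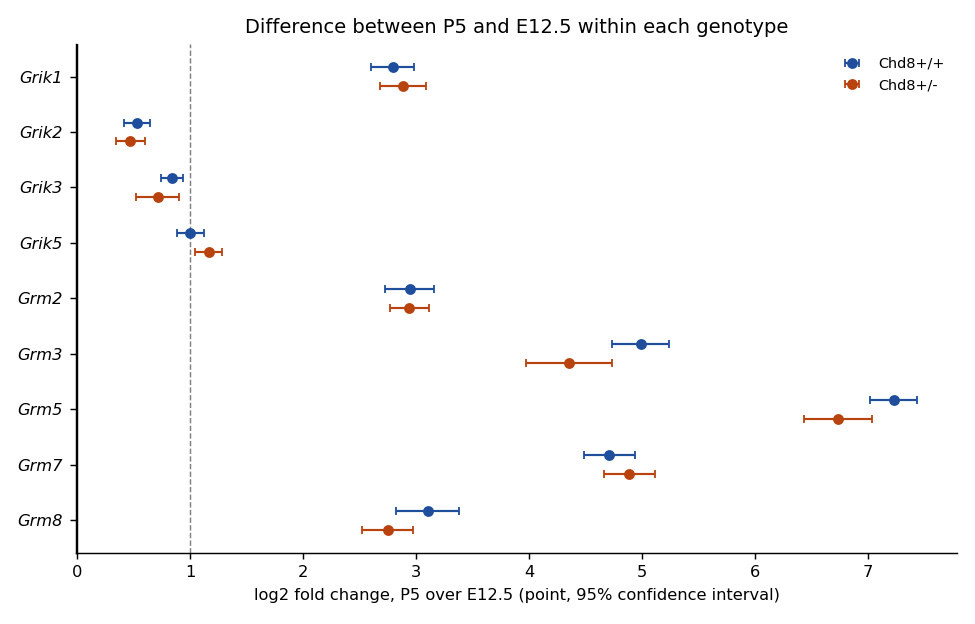
Log2 fold change between P5 and E12.5 in Chd8+/+ (blue) and Chd8+/- (orange) for each gene, with 95% confidence intervals from edgeR and n = 3 libraries per group. The dashed line marks a log2 fold change of 1, and Grik2 and Grik3 lie below it in both genotypes.

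Of the family genes outside the list, Grik4 and Grm4 were also called higher at P5 in both genotypes. Grik4, the other kainate subunit that needs a partner, had a log2 difference of 2.38 in Chd8+/+ and 2.22 in Chd8+/-. Grm4 had 2.07 and 2.15. Grm6, the mGlu6 receptor of retinal bipolar cells, had at most 4 counts in any library and was not tested.

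Divided by exonic length, the order of the 9 genes changed between the stages. At E12.5 the order in Chd8+/+ was Grik5, Grik3, Grik2, Grm2, Grik1, Grm3, Grm7, Grm5 and Grm8, with Grm2 and Grik1, and Grm3 and Grm7, overlapping between libraries. At P5 it was Grik5, Grm5, Grik3, Grm3, Grm7, Grik2, Grm2, Grik1 and Grm8, and there the libraries of neighbours overlapped for Grik2 and Grm2. In P5 Chd8+/- Grm2 stood before Grm7 and Grik2, but the libraries of Grm3 and Grik3, Grm2 and Grm7, and Grm7 and Grik2 overlapped. Grik5 was at 34.1 ± 1.73 CPM per kb (SD, n = 3) in E12.5 Chd8+/+ and at 68.4 ± 2.84 in P5 Chd8+/+, while Grm5 went from 0.229 ± 0.0518 to 33.9 ± 1.71.
Summed over all 5 kainate genes, the level per length was 55.3 ± 1.33 CPM per kb (SD, n = 3) in E12.5 Chd8+/+ and 114 ± 2.98 in P5 Chd8+/+. Over all 8 metabotropic genes it was 5.05 ± 0.672 and 84.8 ± 3.88. The kainate sum was therefore far above the metabotropic sum in the embryo, and both were of the same order at P5.
Within the kainate family Grik5 kept the largest share, 61.7% ± 1.8 (SD, n = 3) of the sum per length in E12.5 Chd8+/+ and 60.2% ± 1.1 in P5 Chd8+/+, and its libraries overlapped between the stages. Grik1 went from 2.46% ± 0.37 to 8.24% ± 0.24, and Grik2 from 13.9% ± 1.4 to 9.73% ± 0.14. Within the metabotropic family Grm5 went from 4.5% ± 0.54 to 39.9% ± 0.35 and Grm3 from 11% ± 1.8 to 20.5% ± 1.6. Grm2 moved from 27.5% ± 3.5 to 12.5% ± 1 although its own level rose. Shares of a family are bound to each other, and are given as a description.

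**Figure D3:**
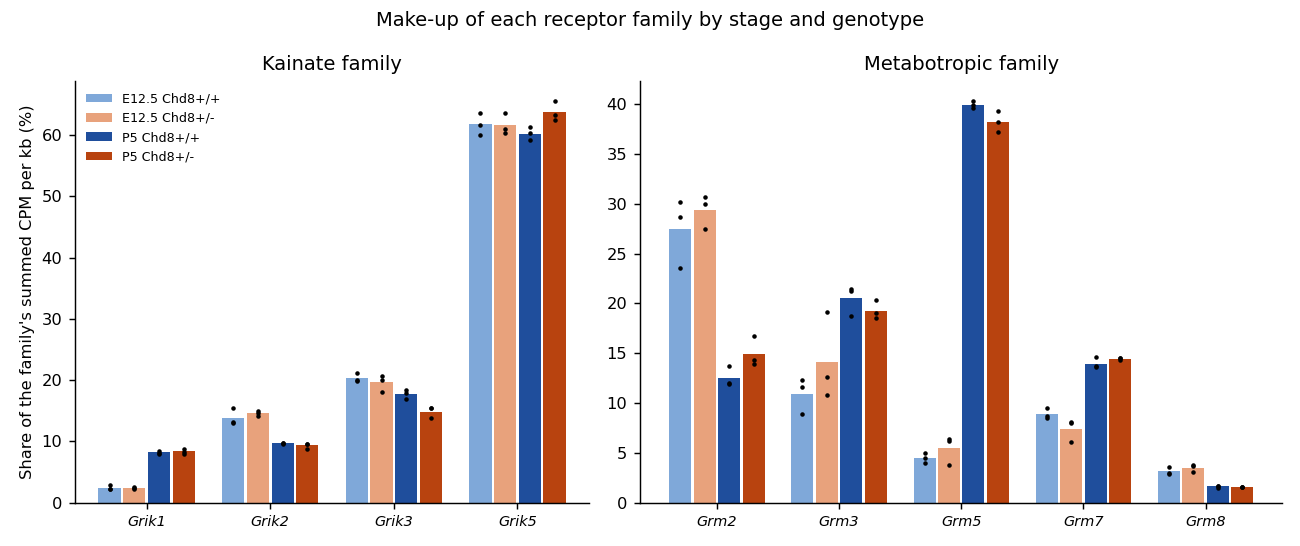
Share of each gene in the summed CPM per kb of its family (all 5 kainate and all 8 metabotropic genes), shown for the 9 listed genes, by stage and genotype. Bars are means of 3 libraries and points are single libraries. Grik5 holds about 60% of the kainate sum in all groups, whereas Grm5 goes from 4.5% to 39.9% in Chd8+/+.

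Partners and signaling genes of the receptors were counted in the same comparison, where 84% of all genes tested in Chd8+/+ and 83.2% in Chd8+/- were called and 41.7% in each were called higher. Of 9 genes for kainate receptor auxiliary subunits and partners, all 9 were called higher at P5 in both genotypes, from Pick1 (log2 0.44 in Chd8+/+), a scaffold protein, to Neto1 (4.32), an auxiliary subunit. Of 11 metabotropic receptor partners, 8 were called higher and 2 lower in each genotype. In Chd8+/+ the extremes were Frmpd4 (6.00), a scaffold protein that binds Homer, and Homer3 (-2.09), a postsynaptic scaffold. Of 13 Gq signaling genes, 11 were called higher and 1 lower in each genotype, with the Trpc5 channel at 5.95 and phospholipase Plcb3 at -0.58 in Chd8+/+. Of 16 Gi and Go signaling genes, 14 were higher and 2 lower in each genotype, from Gnai3, a Gi subunit (-0.97), to the adenylyl cyclase Adcy1 (6.30).
Of 11 AMPA and NMDA receptor subunit genes, 10 were higher and 1 lower in each genotype, with Grin1, the obligatory NMDA subunit, at 5.98 and Grin3b at -1.71 in Chd8+/+. Their median log2 difference of 4.21 in Chd8+/+ compares with 2.94 for the 9 receptor genes. Of 10 genes for glutamate transport and metabolism, 7 were higher in each genotype, and 2 were lower in Chd8+/+ and 3 in Chd8+/-, from Slc38a2, a glutamine carrier (-1.29), to the neuronal glutamate transporter Slc1a1 (4.72) in Chd8+/+. In Chd8+/- the highest transport gene was Slc17a7 (4.81).
Markers of cell types also differed between the stages. In Chd8+/+ the summed level of 9 progenitor markers was 4245 to 4559 CPM at E12.5 and 288.9 to 324.2 CPM at P5, and that of 8 astrocyte markers was 359.9 to 382.7 CPM and 1722 to 1787 CPM. The 8 excitatory neuron markers went from 649.1 to 731.8 CPM to between 1365 and 1456 CPM in sum. Of these 8, 5 were called higher and 2 lower in Chd8+/+ (background 84% called, 41.7% higher). The summed level of 8 striatal medium spiny neuron markers in Chd8+/+ was 19.29 to 22.47 CPM at E12.5 and 333.9 to 366.3 CPM at P5. All 8 were called higher. None of these markers was at 0 in all libraries of a group. In bulk tissue, more cells of a type and more RNA per cell cannot be told apart, and the part of cell composition in the receptor differences was not tested.

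By genotype at E12.5, none of the 9 genes differed beyond the spread between libraries. Of the 9, 0 were called by edgeR (background 0.00553% of 18081 genes, which is Chd8 alone), 0 had an unadjusted p under 0.05 (background 5.15%) and 0 had libraries that did not overlap (background 11.4%). DESeq2 called 0 of the 8 that it gave an adjusted p (background 0.0373% of 13419 genes), and limma-voom 0 of 9. Log2 fold changes, Chd8+/- over Chd8+/+, ran from -0.26 for Grm7 to 0.42 for Grm3, with adjusted p of 0.944 or above. The most abundant genes were measured most closely. Grik2 differed by 0.0057 (95% confidence interval -0.15 to 0.16), Grik5 by -0.071 (-0.18 to 0.035) and Grik3 by -0.12 (-0.29 to 0.056).
For the scarcer genes the intervals were wide. Grm3 lay between -0.10 and 0.93 and Grm5 between -0.23 and 0.81, so that the intervals still hold increases of up to 1.91-fold and 1.76-fold. The highest Grm3 value, 3.08 CPM in Chd8+/- replicate 2, set much of its difference, which was 0.11 without that library. The same library had the highest summed meningeal markers (1422 CPM) and the lowest summed excitatory neuron markers (511 CPM) at E12.5. Whether this bears on Grm3 was not tested. On counts simulated for this comparison edgeR recovered 16% of log2 changes of 0.3 and 76% of changes of 1. The changed genes were drawn from all 18081 genes tested, whatever their level. These shares therefore do not describe scarce genes such as Grm3 and Grm5. Summed markers of astrocytes (359.9 to 382.7 CPM in Chd8+/+ and 393.7 to 400.4 CPM in Chd8+/-) and of endothelium (229.7 to 234.2 and 204.1 to 215.8 CPM) did not overlap between the genotypes at E12.5. The sums of the other marker lists overlapped. Of the 6 astrocyte markers tested, 0 had an unadjusted p under 0.05, and 2 were lower in Chd8+/-. All 6 endothelial markers were lower, 2 of them at an unadjusted p under 0.05 (background 5.15% in both directions).

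At P5 6 of the 9 genes had a lower mean in Chd8+/- and 3 a higher one, against 49.6% of all genes lower. Grik3, Grm5, Grm7 and Grm8 were lower in every Chd8+/- library than in any Chd8+/+ library, 4 of 9 against a background of 14.8%, and none of the 9 was higher in every one (background 8.55%). None passed edgeR's threshold. Of the 9, 0 were called (background 0.00536% of 18666 genes, which is Chd8 alone), while 5 had an unadjusted p under 0.05, 4 of them lower (background 9.77%) and 1 higher (background 8%). DESeq2 called 2 of the 9, Grik3 and Grm5, both lower in Chd8+/- (background 5.22% of 12467 genes, 3.55% lower). limma-voom called 0. Without Chd8+/- replicate 3, an alternative added after seeing the data, 5 genes were lower without overlap (Grm3 in addition, background 20.8%) and 2, Grik5 and Grm2, were higher without overlap (background 13%). An unadjusted p under 0.05 was then reached by 4 lower genes (Grik3, Grm3, Grm5 and Grm7, background 8.09%) and by both higher ones (background 7.56%).

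Grik3, which encodes the low-affinity kainate subunit GluK3, was at 185.4, 179.1 and 178.4 CPM in P5 Chd8+/+ and at 143.3, 159.2 and 152.2 CPM in P5 Chd8+/-. The highest Chd8+/- library lay well below the lowest Chd8+/+ library. The means were 180.9 ± 3.83 and 151.6 ± 7.96 CPM (SD, n = 3), a log2 fold change of -0.24 (SE 0.0434, unadjusted p = 2.20e-04, adjusted p = 0.0950 from edgeR, 2.64e-04 from DESeq2). It ranked 32 of 18666 genes by p. Its share of the kainate sum was 17% to 18.4% in Chd8+/+ and 13.8% to 15.4% in Chd8+/-. Without Chd8+/- replicate 2 edgeR called Grik3 lower (-0.28, adjusted p = 0.0222), and without Chd8+/- replicate 3, the library that stood apart, it was -0.23 (adjusted p = 0.192).

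Grm5 was at 270.6, 283.4 and 256.2 CPM in P5 Chd8+/+ and at 217.5, 242.9 and 241.8 CPM in P5 Chd8+/-, again without overlap. The means were 270.1 ± 13.6 and 234.1 ± 14.4 CPM (SD, n = 3), a log2 fold change of -0.19 (SE 0.0515, unadjusted p = 0.00388, adjusted p = 0.127 from edgeR, 0.0104 from DESeq2). Without Chd8+/- replicate 3 it was -0.21 (adjusted p = 0.207). Grm3 was lower by mean, 53.1 ± 6.23 against 45.1 ± 3.54 CPM, but Chd8+/+ replicate 3 (46 CPM) lay below Chd8+/- replicate 3 (49.1 CPM). The log2 fold change was -0.22 (SE 0.0811, adjusted p = 0.207 from edgeR) and -0.28 without Chd8+/- replicate 3.

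Grm2 was the 1 gene of the 9 with an unadjusted p under 0.05 and a higher level in Chd8+/-. It was at 50.2, 51.3 and 54.1 CPM in P5 Chd8+/+ and at 60.2, 54.3 and 53.9 CPM in P5 Chd8+/-, so that the groups touched. It differed by 0.13 on the log2 scale (SE 0.0528, adjusted p = 0.245 from edgeR), in the opposite direction to Grm3 of the same receptor group. Grik5 was at 262.4 ± 10.9 CPM in Chd8+/+ and 277.3 ± 13.2 CPM in Chd8+/- (SD, n = 3), with overlapping libraries and a log2 fold change of 0.096 (95% confidence interval -0.0095 to 0.20). Grik5 made up 59.1% to 61.2% of the kainate sum per length in Chd8+/+ and 62.5% to 65.5% in Chd8+/-.

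Of the group III members at P5, Grm8 was at 13, 15.1 and 13.2 CPM in P5 Chd8+/+ and at 11.3, 12.3 and 12.2 CPM in P5 Chd8+/-. It differed by -0.18 on the log2 scale (SE 0.0774, adjusted p = 0.255 from edgeR). Grm7 was at 69.2, 70.4 and 69.2 CPM and at 62.8, 65.1 and 67.9 CPM, a log2 fold change of -0.076 (SE 0.0378, unadjusted p = 0.0708, adjusted p = 0.324). The groups of both genes were separate but close together. Grik1 (0.039, 95% confidence interval -0.076 to 0.15) and Grik2 (-0.044, -0.12 to 0.036) overlapped between the genotypes.

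**Figure D4:**
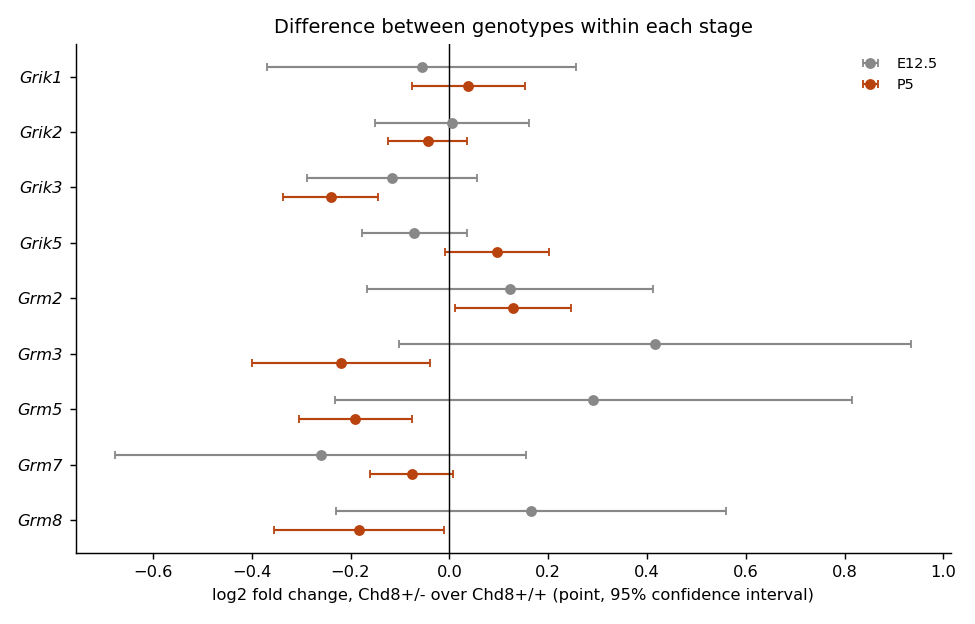
Log2 fold change of each gene between Chd8+/- and Chd8+/+ at E12.5 (grey) and at P5 (orange), with 95% confidence intervals from edgeR, unadjusted for the number of genes, and n = 3 libraries per group. At P5 the intervals of Grik3, Grm3, Grm5 and Grm8 lie below 0 and that of Grm2 above it, while at E12.5 all 9 include 0.

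Of the family genes outside the list, at P5 Grik4 had a log2 fold change of -0.14 (unadjusted p = 0.0301, adjusted p = 0.233 from edgeR). Its level was lower in every Chd8+/- library than in any Chd8+/+ library (background 14.8%). Grm4 had a log2 fold change of -0.0019. Summed per length, the metabotropic family was at 80.5 to 88.1 CPM per kb in P5 Chd8+/+ and 73.4 to 79.5 in P5 Chd8+/-, and the kainate family was at 112 to 117 and 110 to 115. The first pair of ranges is separate and the second overlaps. Grm5 (33.9 and 29.4 CPM per kb by mean) and Grm3 (17.4 and 14.8) held the largest parts of the metabotropic sum. Its separation is therefore not independent of their values given above. Grm2 was the only metabotropic gene with a higher mean in Chd8+/- (10.6 and 11.5 CPM per kb).

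The genomic spans of the 9 members ran from 13 kb (Grm2) to 921.6 kb (Grm7). Offsets that remove each library's trend with genomic span moved several of the P5 values. Under them Grm5 went to -0.095 and Grm8 to -0.075, Grm3 to -0.14 and Grik1 to 0.10, while Grik2 (0.059) and Grm7 (0.034) changed sign. Grik3 went to -0.17 (adjusted p = 0.136 from edgeR) and Grm2 to 0.11. Offsets for exonic length moved Grik2 to 0.0063 and left the sign of the other 8.

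**Figure D5:**
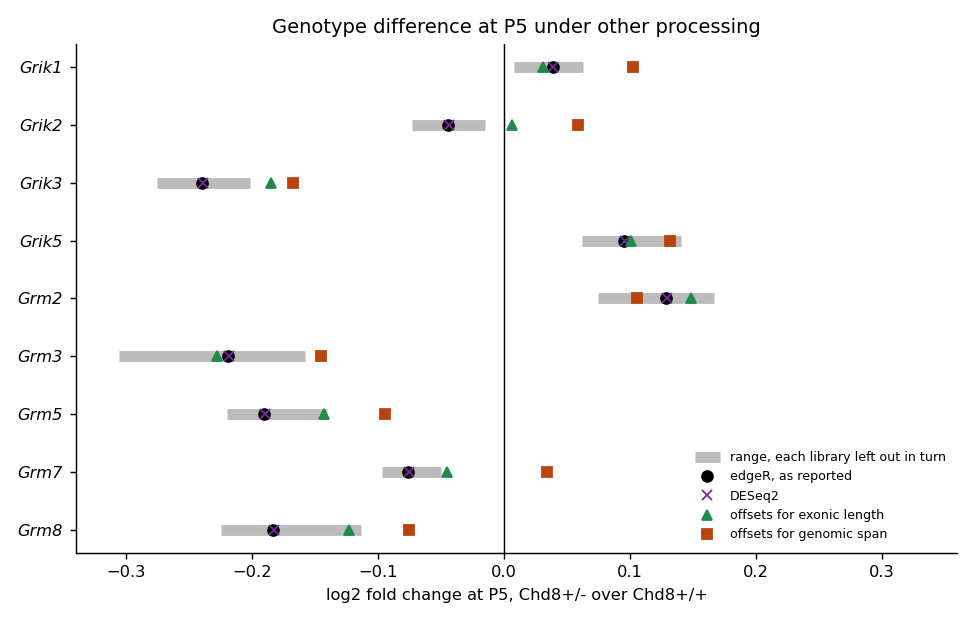
Log2 fold change of each gene at P5, Chd8+/- over Chd8+/+, from edgeR as reported (circles), from DESeq2 (crosses), with offsets for exonic length (triangles) and with offsets for genomic span (squares). Grey bars give the range with each of the 6 libraries left out in turn. Grik3 stays between -0.28 and -0.17 throughout, and Grik2 and Grm7 cross 0 with the offsets for genomic span.

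Among partner and signaling genes at P5, edgeR called 0 in each list. An unadjusted p under 0.05 was reached by 8 of 13 Gq signaling genes (6 lower), 4 of 16 Gi and Go signaling genes (4 lower), 4 of 11 AMPA and NMDA subunit genes (3 lower), 3 of 11 metabotropic receptor partners (3 lower) and 3 of 10 transport and metabolism genes (2 lower), against 9.77% of all genes lower and 8% higher. DESeq2 called 5.22% of the genes to which it gave an adjusted p. Of 9 kainate receptor partners, 5 had an unadjusted p under 0.05 and a lower level in Chd8+/- (background 9.77%), and 1, Neto1, was called lower by DESeq2. Neto1, an auxiliary subunit of kainate receptors, had a log2 fold change of -0.26 (SE 0.0471, adjusted p = 0.0950 from edgeR, 8.53e-04 from DESeq2) without overlap of the genotypes. The highest of the list was C1ql2 at 0.099, a secreted synaptic organizer. Of 13 Gq signaling genes, DESeq2 called 4, among them phospholipase Plcb4 (-0.28) and the IP3 receptor Itpr1 (-0.15), which were lower, and the kinase Dgkz (0.15), which was higher.
Of 16 Gi and Go signaling genes DESeq2 called Adcy1 (-0.15), and the highest was Rgs14 at 0.0055. Of 11 AMPA and NMDA subunit genes it called Gria2 (-0.23, adjusted p = 6.59e-04 from DESeq2 and 0.100 from edgeR), the AMPA subunit that sets calcium permeability. The extremes of that list were Grin3b (-0.23) and Grin2c (0.20), neither of which had an unadjusted p under 0.05. Of 11 metabotropic receptor partners DESeq2 called 0, with values from -0.12 (Elfn1) to 0.058 (Grasp). Of 10 genes for glutamate transport and metabolism it called Slc38a1 (-0.12), and the extremes were Slc17a8 (-0.17) and Slc1a1 (0.097). The median log2 fold change was -0.076 for the 9 receptor genes, -0.10 for the kainate partners and -0.071 for the AMPA and NMDA subunits, beside 0.0017 for all genes tested.

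Markers of some cell types moved with genotype at P5. All 8 striatal medium spiny neuron markers had an unadjusted p under 0.05 and were lower in Chd8+/- (background 9.77%, which holds for each marker count on that rule), and DESeq2 called 6 of them (background 3.55% lower). Their summed level was 333.9 to 366.3 CPM in Chd8+/+ and 244.8 to 300.9 CPM in Chd8+/-, from Penk (log2 -0.39) to Rgs9 (-0.20), and none was at 0. Choroid plexus markers were at 444.9 to 577 CPM and 324.1 to 382.4 CPM, with 6 of 7 lower at an unadjusted p under 0.05. GABAergic interneuron markers were at 711.9 to 733.2 and 608.3 to 691 CPM, with 3 of 10 lower on that rule, Cajal-Retzius markers at 400.8 to 406.2 and 352.2 to 370.7 CPM, with 1 of 4, Reln (-0.17), lower and the other 3 between 0.016 and 0.18, and endothelial markers at 203.4 to 231.9 and 182.5 to 203.1 CPM, with 5 of 6 lower. Excitatory neuron markers (1365 to 1456 and 1362 to 1441 CPM) and astrocyte markers (1722 to 1787 and 1554 to 1777 CPM) overlapped in sum, as did progenitor markers (288.9 to 324.2 and 270.9 to 298.8 CPM). Of the 8 excitatory markers, Bcl11b (-0.28) and Neurod6 (-0.14) were lower at an unadjusted p under 0.05, without overlap, and DESeq2 called both. Of the 9 progenitor markers 4 were lower and 1 higher at an unadjusted p under 0.05. The part of these markers in the receptor differences was not tested.

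An interaction term fitted to the 12 libraries asked whether the effect of genotype differed between E12.5 and P5. Of the 9 genes 0 were called by edgeR (background 0% of 19676 genes, 10% at an unadjusted p under 0.05) and 0 of the 7 with an adjusted p by DESeq2 (background 0.0929% of 8616 genes). Grm3 had the largest value, -0.65 on the log2 scale (SE 0.238, unadjusted p = 0.0165, adjusted p = 0.431 from edgeR), and Grm5 the next, -0.50 (0.202, unadjusted p = 0.0267, adjusted p = 0.453). Both were higher by mean in Chd8+/- at E12.5 and lower at P5. Grm3 went to -0.33 without E12.5 Chd8+/- replicate 2, and Grm5 to -0.32 without E12.5 Chd8+/- replicate 1, so these values rest in part on embryonic libraries with 68 to 138 and 72 to 113 counts. Grm8 was at -0.37 (adjusted p = 0.498) and Grik5 at 0.15 (adjusted p = 0.509). In simulated counts for this test, with 19676 genes, edgeR recovered 34% of log2 changes of 0.5. That share does not describe Grm3 and Grm5. Recovery for genes with few embryonic counts and a large stage difference was not tested.

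For each gene the gene with the most similar profile over the 12 libraries was found by the root mean square difference of centred log2 CPM, among 19675 genes. The points share the stage difference, which is the largest part of these profiles. The kainate genes were nearest to Scn3b (Grik1, 0.0532), Rbfox2 (Grik2, 0.0417), Klhl29 (Grik3, 0.0737) and Pnkd (Grik5, 0.0431). The metabotropic genes were nearest to Tubg2 (Grm2, 0.0447), Pcsk2 (Grm3, 0.18), Chrm1 (Grm5, 0.181), Syngr1 (Grm7, 0.0703) and Dnah5 (Grm8, 0.115). Chrm1 encodes a Gq-coupled muscarinic receptor and Scn3b a sodium channel subunit.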

How the data were processed

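Neocortical RNA of 12 libraries was sequenced after dUTP library preparation, each library in 2 runs, with separate runs for each stage. The authors trimmed reads (Trim Galore 0.4.1), checked them (FastQC 0.11.2), aligned them to GRCm38.p4 with TopHat2 2.1.0 and counted fragments on Ensembl genes with featureCounts 1.5.0. The deposited values are raw counts per gene and run, beside exonic lengths. The recorded P5 command sets no strand, and no command is recorded for E12.5. The 2 runs of a library were summed, after a check that they differed by less than libraries of a group do. Symbols were found for 46005 of 46603 identifiers. Members and gene lists were chosen with earlier results of these data known.

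Counts were tested with edgeR 4.0.16 (R 4.3.3) using TMM, filterByExpr, its quasi-likelihood test, and p-values adjusted by Benjamini-Hochberg over all genes tested (threshold 0.05). Genotypes were compared within stages, stages within genotypes, and the interaction over 12 libraries. Standard errors are those implied by the F statistic, and counts per library are given as CPM with TMM factors over the 12 libraries. Alternatives were DESeq2 1.42.0, limma-voom (limma 3.58.1), RLE size factors or total counts alone, all genes with at least 1 count, loess offsets (span 0.5) for exonic length or genomic span, 1 model over 12 libraries, a block for the replicate number, and fits without each single library. The fit was tested on simulated data with 200 changed genes. Named genes are the family genes, each list's lowest, highest and called genes (in the stage comparisons, where most were called, only the extremes), each member's nearest profile, and Chd8. The lists' genes called by DESeq2, Slc17a7, Neurod6, Bcl11b and Reln as neuron markers, Xist, and the genes sharing exons with members were named in addition, after their values were seen. Some genes that this rule names are not reported here. Figures were made with Python and matplotlib.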

Additional observations from a re-analysis of the deposited data

How the results depend on the processing

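The 9 calls of the stage difference held in each genotype under all 11 alternatives, and 0 members were called at E12.5 or in the interaction under any alternative. At P5 the number of members called was 0 as reported, 2 with DESeq2 (Grik3 and Grm5), 3 when all genes with at least 1 count were tested (Grik3, Grm3 and Grm5) and 0 to 1 when single libraries were left out, the 1 being Grik3 without Chd8+/- replicate 2. The cause was not tested. The number of genes called at P5 was 1 of 18666 as reported, 651 of 12467 with DESeq2, 995 of 31265 with all genes, and 327 of 19044 without Chd8+/- replicate 2. It was 4 with the replicate block and also in 1 model over 12 libraries, and 2 to 5 without Chd8+/- replicate 1 or 3. At E12.5 it was 1 as reported, 5 with DESeq2, 13 with all genes, 2 in 1 model and 0 with the block. For the interaction it was 0, 8 with DESeq2 and 17 with all genes.

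Signs turned for values near 0. At E12.5 Grik2 (0.0057) was -0.00025 with all genes and -0.022 with offsets for genomic span, and ranged from -0.037 to 0.072 with libraries left out, as Grik1 (-0.056) did from -0.15 to 0.055. At P5 Grik2 was 0.0063 with offsets for exonic length and 0.059 with those for genomic span, and Grm7 was 0.034 with the latter. In the interaction Grm2 (-0.012) was 0.012 with total counts alone and ranged from -0.14 to 0.12 with libraries left out, as Grik1 (0.078) did from -0.014 to 0.19.

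The replicate numbers were not taken to pair the libraries, since not every pair with the same number correlated above 0.1. Deviations of libraries with the same number correlated at -0.227, -0.102 and -0.0913 at E12.5 and at 0.227, 0.111 and 0.0434 at P5. At E12.5 0 of 6 libraries correlated best with their own number and at P5 5 of 6 did, all but Chd8+/- replicate 3, which is a hint from the data and not from the design. With the replicate block Grik3 at P5 was -0.24 (adjusted p = 0.163), and no member's call changed in any comparison. Scaling moved the median of all genes by 0.0525 or less in size. Depth limits the scarce genes at E12.5, where members had as few as 61 counts per library.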
